A study of Homo sapiens with 4 samples.

Results

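NF-kB factors, the cytokines and chemokines they drive, and a few of their adhesion and feedback targets were examined as 1 group of 32 genes. Members were taken by symbol from a list of NF-kB subunits, IkB inhibitors and NF-kB driven genes, and all 32 were found among the 58302 genes listed. The genes were read in polyA RNA from T24 cells, a human bladder carcinoma line long kept in culture. There were 2 libraries from T24 cells with an IGF2BP3 knockout, made with CRISPR/Cas9 as a stable line, and 2 from T24 cells labelled control, with no further treatment given for either group. The labels do not say if libraries with the same label were grown separately or are 1 clone. P-values therefore measure only how these samples spread, and that spread may be technical. IGF2BP3 encodes an RNA-binding protein that binds many messenger RNAs carrying N6-methyladenosine, and the comparison addresses what its loss does to gene expression.

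NF-kB is a family of dimeric transcription factors that IkB proteins hold in the cytoplasm. When cytokine or Toll-like receptors activate the IkB kinases, IkB is degraded, and the freed dimers enter the nucleus and bind short kB sites in promoters. Among the genes they switch on are chemokines that attract neutrophils, adhesion molecules, and their own brakes, such as NFKBIA and TNFAIP3. In tumour cells of epithelial origin, the pathway is known for sustaining inflammatory signalling and survival.

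Values are FPKM, that is, reads scaled for the length of a gene's transcript and for the depth of its library. Whole reads recovered from them gave totals of 811823 and 1240207 in the knockouts, against 2162179 and 1870884 in the controls, which is shallow. IGF2BP3 itself had an FPKM of 0 and 0.190 in the knockouts, against 2.94 and 21.5 in the controls. These stood for 0 and 1 reads, against 27 and 171. It did not pass the test used below, with a log2 fold change of −3.89 ± 2.83 (SE) and an adjusted p of 0.955 in limma. Not passing thus does not show that a gene is unchanged. Replicates differed widely. Of 11463 genes tested, 999 had at least 50 reads in one knockout and 0 in the other, and 1042 did so in the controls. Most of these were at 0 in library 1 of their group, 790 in knockout 1 against 209 in knockout 2, and 784 in control 1 against 258 in control 2. Fewer genes were above 0 in library 1 of each group too, 7827 in knockout 1 against 11127 in knockout 2, and 8856 in control 1 against 11433 in control 2, although control 1 had the most reads. A listed 0 could thus differ from its replicate by more than counting error. Of 10 urothelial and epithelial markers, 6 were listed at 0 in all libraries (KRT19, EPCAM, CDH1, UPK2, UPK1B and TP63), while KRT8 and KRT18 were abundant. Of 12 leukocyte markers, 11 were listed at 0 in all libraries, PTPRC and CD14 among them, and AIF1 had 4.18 FPKM in knockout 1 and 0 elsewhere. Of 8 fibroblast markers 5 were at 0 throughout, and of 6 endothelial markers 4.

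Of the 32 members, 15 were listed at 0 in all 4 libraries, 17 were above 0 in at least 1, and 14 had a mean of at least 1 FPKM and were tested. Above 0 were 10 and 15 members in knockouts 1 and 2, against 10 and 12 in controls 1 and 2. The test was limma on log2(FPKM + 0.5) across all 11463 genes; p-values were adjusted by Benjamini-Hochberg, and the threshold was 0.05. CXCL1 was the 1 member that passed, and it rose in the knockout. Over all genes tested, 0.0872% passed in either direction, 0.0611% as higher and 0.0262% as lower. At an unadjusted p under 0.05 there were 3 members of 14 (CXCL1, CXCL8 and RELB), against 3.91% of all genes. A listed 0 in at least 1 library was found for 7 of the 14 tested members, against 49.4% of all genes tested. Of the 14 tested members, 8 had a fitted log2 fold change above 0, against 48.2% of all genes, and their median was 0.10, against −0.08 over all genes. That median was 0.10 also with the 3 members listed at 0 in both controls set to a bound of 3 reads. Those 3 members lay above the median either way, so this could not move it. The groups did not overlap for 7 of the 14, against 26.5% of all genes tested. In 5 of these the knockouts were the higher group (12.1% of all genes) and in 2 the lower (14.4%). Of the 5, CXCL1, CXCL8 and TNFAIP2 met the filter of 1 FPKM only through the knockouts (control means 0, 0.313 and 0). CSF1, fitted above 0, did so too, while PTGS2, seen in control 1 only, fell just below it (mean 0.973). The list was also chosen with earlier results of these data known, so these counts describe the list and test nothing. With 2 libraries a group, an exact permutation test of a single gene cannot go below p = 0.333, two-sided. The limma fit took its SE from genes of like level and gave a gene's own replicates no weight.

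**Figure D1:**
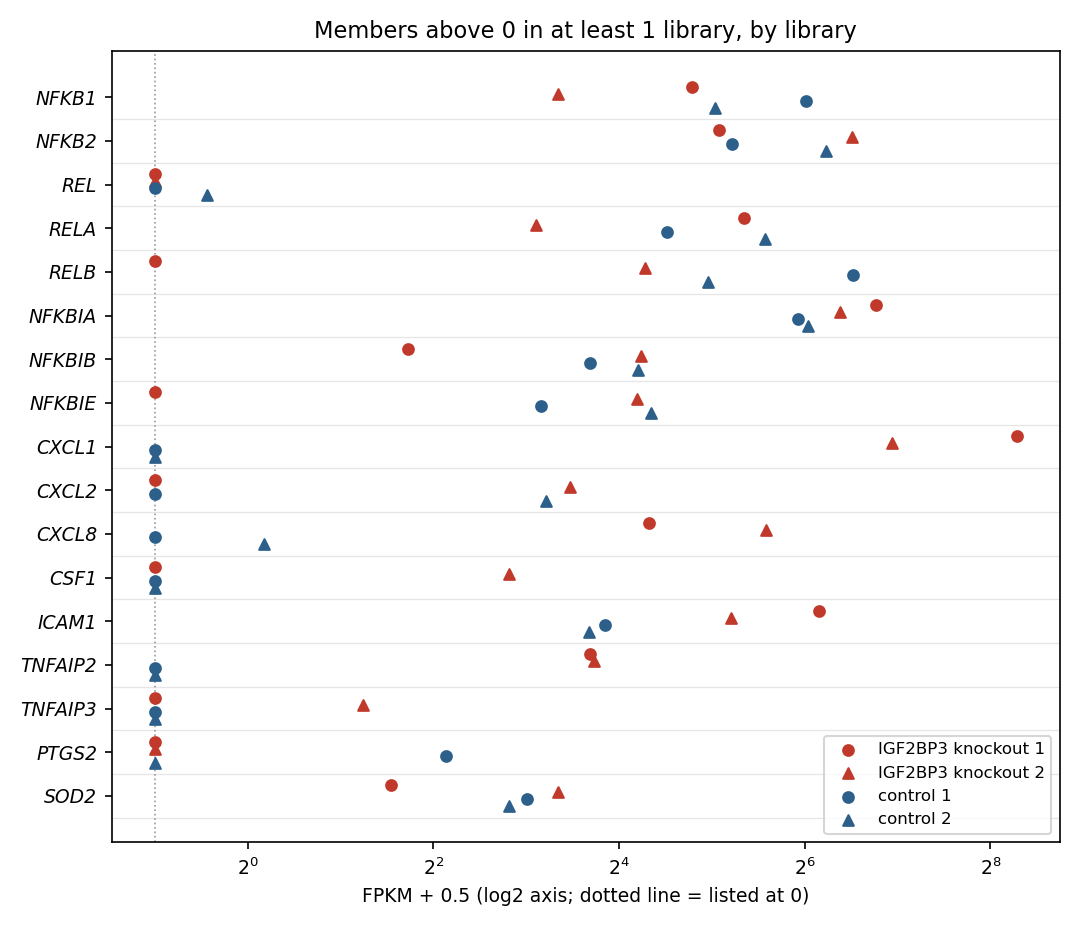
FPKM + 0.5 on a log2 axis for the 17 members above 0 in at least 1 library, with IGF2BP3 knockout libraries in red and control libraries in blue (circles library 1, triangles library 2). CXCL1, CXCL8, ICAM1, NFKBIA and TNFAIP2 have both knockouts right of both controls, and NFKB1 and RELB have both knockouts to the left.

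The largest fitted change among the tested members lay in the ELR chemokines, the CXC chemokines that attract neutrophils through the receptors CXCR1 and CXCR2. CXCL1 had FPKM of 311 and 122 in the knockouts, against a listed 0 in both controls. CXCL8, also called interleukin 8, had 19.5 and 47.3 in the knockouts, against 0 and 0.627 in the controls. CXCL2, the closest relative of CXCL1, had 0 and 10.6 in the knockouts, against 0 and 8.78 in the controls. Both knockouts stood above both controls for CXCL1 and CXCL8, whereas the groups overlapped for CXCL2, which was seen in library 2 of each group and in neither library 1, the libraries with fewer genes above 0. CXCL3, CXCL5 and CXCL6, the other ELR members of the list, were at 0 in all 4 libraries.

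Reads show the depth behind these values. CXCL1 rested on 277 and 166 reads in the knockouts and on none in the controls. Set against 3 reads over both controls, the limit that a count of 0 allows, its depth-scaled read total was at least 290-fold higher in the knockouts. In FPKM, 3 reads of CXCL1 are worth 1.26 in control 1 and 1.46 in control 2. CXCL8 rested on 27 and 100 reads in the knockouts and on 0 and 2 in the controls, a ratio of 125 (exact 95% interval 33.8 to 1042). CXCL2 rested on 16 reads in knockout 2 and 20 in control 2, a ratio of 1.57 (0.762 to 3.19) over the group totals. These intervals and limits cover counting error only. By FPKM, CXCL1 had rank 150 among all genes in knockout 1 and rank 452 in knockout 2, and CXCL8 had ranks 3445 and 1531.

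Both genes were above their controls in both knockouts, in different proportions. Of the reads of the 6 ELR genes of the list, CXCL1 took 91.1% of 304 in knockout 1 (exact 95% interval 87.3 to 94.1%). In knockout 2 it took 58.9% of 282 (52.9 to 64.7%). CXCL8 took 8.88% in knockout 1 (5.93 to 12.7%) and 35.5% in knockout 2 (29.9 to 41.4%). The intervals cover counting error within 1 library each, and reads that are PCR copies are not independent molecules, so the difference between the 2 knockouts was not tested. The level of CXCL1 was thus 15.9 times that of CXCL8 in knockout 1 and 2.58 times in knockout 2, both per length. Control 2 held 22 reads of the family, 20 of them from CXCL2, and control 1 held none.

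**Figure D2:**
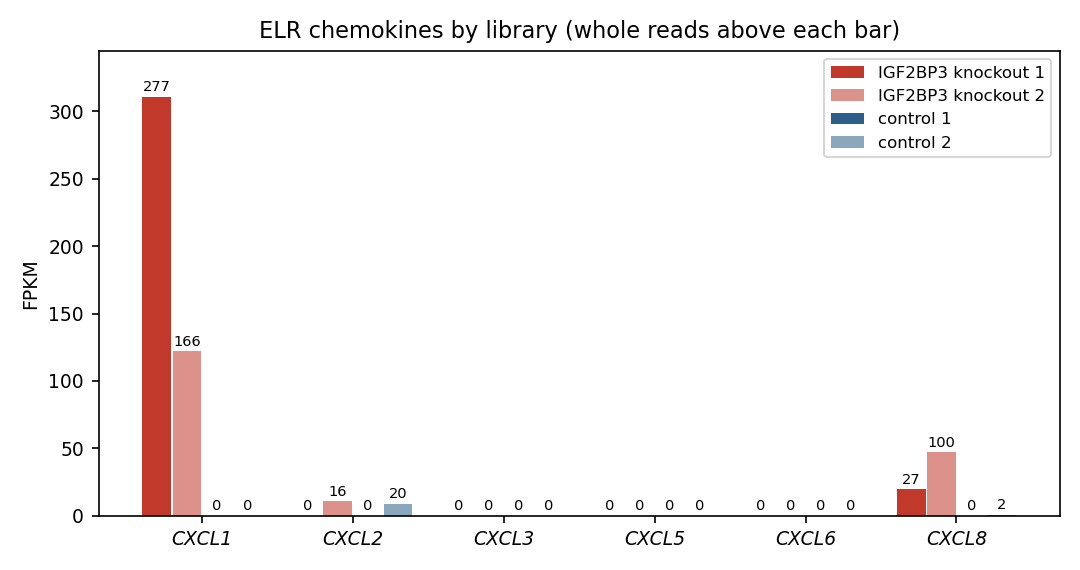
FPKM of the 6 ELR chemokines in each library, from 0, with whole reads printed above each bar. CXCL1 stands at 311 and 122 in the knockouts and at 0 in both controls, CXCL8 is the other family member seen in both knockouts, and CXCL2 appears in library 2 of each group.

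CXCL1 had a log2 fold change of 8.61 ± 1.85 (SE, n = 2 and 2), with an adjusted p of 0.00792 in limma. The size of this fold depends on the pseudocount, since both controls were at 0. The call was lost with a pseudocount of 0.1 (adjusted p = 0.0574), in limma without the trend (0.891), and with any 1 of the 4 libraries left out (0.233 to 0.727), where the fold was 7.94 to 9.28. Of all tested genes, 8 (0.0698%) had 50 or more reads in each knockout while both controls were at 0, CXCL1 among them. CXCL8 did not pass, with a log2 fold change of 5.36 ± 2.48 (SE) and an adjusted p of 0.955 in limma. CXCL2 had 0.13 ± 2.83 (adjusted p = 0.999 in limma), which was −2.11 without knockout 2 and −1.98 without control 1. Whether the changes of CXCL1, CXCL2 and CXCL8 differ from each other was not tested.

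The summed FPKM of the 10 urothelial and epithelial markers was 1499 and 1163 in the knockouts, against 440 and 575 in the controls. Nearly all of that sum came from the keratins KRT8, KRT18 and KRT7, none of which passed. KRT8 alone had 1138 and 816 in the knockouts, against 266 and 397 in the controls. The part of these markers in the chemokine values was not tested. The 12 leukocyte markers summed to 4.18 and 0 in the knockouts and to 0 in both controls, all of it from AIF1. In bulk RNA, fewer cells making a transcript and less transcript per cell cannot be told apart.

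The ELR genes lie together on chromosome 4 (hg38, GENCODE 29), CXCL8 (ENSG00000169429) at chr4:73740506-73743716 on the plus strand, CXCL1 (ENSG00000163739) at chr4:73869393-73871242 on the plus strand and CXCL2 (ENSG00000081041) at chr4:74097035-74099293 on the minus strand. Their promoters are shown because kB sites in promoters are where NF-kB binds. Promoters from RefSeq (GRCh38.p14, 250 bases before to 50 after the gene start) were found for 26 of the 32 members. Below are 40 bases from each ELR promoter, read 5′ to 3′ on the gene's strand, with the kB-like letters in capitals. The windows lie at chr4:73869299-73869338 (plus) for CXCL1, chr4:74099249-74099288 (minus) for CXCL2, chr4:74038744-74038783 (minus) for CXCL3, chr4:73998744-73998783 (minus) for CXCL5, chr4:73836573-73836612 (plus) for CXCL6 and chr4:73740462-73740501 (plus) for CXCL8.
CXCL1: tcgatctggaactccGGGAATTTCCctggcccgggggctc
CXCL2: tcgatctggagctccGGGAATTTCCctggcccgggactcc
CXCL3: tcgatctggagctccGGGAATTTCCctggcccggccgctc
CXCL5: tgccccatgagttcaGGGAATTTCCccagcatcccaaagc
CXCL6: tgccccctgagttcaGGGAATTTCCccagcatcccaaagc
CXCL8: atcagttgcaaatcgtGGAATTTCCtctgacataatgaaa

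All 6 windows hold GGAATTTCC, which begins 77 to 91 bases before the RefSeq gene start. GENCODE gene coordinates start elsewhere for some of these genes. The windows of CXCL2, CXCL3 and CXCL6 lie inside their GENCODE genes, and that of CXCL5 lies partly inside. CXCL1, CXCL2, CXCL3, CXCL5 and CXCL6 also match a longer kB pattern, GGG, any 2 bases and TTTCC, and CXCL8 does not. The full promoters of CXCL1 (chr4:73869143-73869442, plus), CXCL2 (chr4:74099146-74099445, minus) and CXCL8 (chr4:73740319-73740618, plus) are given in full, with the same letters in capitals.
CXCL1: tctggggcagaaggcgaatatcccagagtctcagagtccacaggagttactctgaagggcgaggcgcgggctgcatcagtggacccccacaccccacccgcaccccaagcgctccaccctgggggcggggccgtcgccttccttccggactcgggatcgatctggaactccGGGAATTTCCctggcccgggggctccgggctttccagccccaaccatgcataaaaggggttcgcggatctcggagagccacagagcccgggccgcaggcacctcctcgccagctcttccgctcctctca
CXCL2: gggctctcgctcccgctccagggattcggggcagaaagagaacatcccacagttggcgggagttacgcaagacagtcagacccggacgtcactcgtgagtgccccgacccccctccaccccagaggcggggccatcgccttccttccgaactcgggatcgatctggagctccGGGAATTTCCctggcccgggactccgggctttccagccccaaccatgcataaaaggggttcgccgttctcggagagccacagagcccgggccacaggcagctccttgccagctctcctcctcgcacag
CXCL8: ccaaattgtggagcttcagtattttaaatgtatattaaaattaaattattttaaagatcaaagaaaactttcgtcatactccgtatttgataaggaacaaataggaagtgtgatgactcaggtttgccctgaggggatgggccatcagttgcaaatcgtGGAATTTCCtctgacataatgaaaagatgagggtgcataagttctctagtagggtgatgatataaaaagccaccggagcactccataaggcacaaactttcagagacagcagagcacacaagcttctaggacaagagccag

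Over the aligned bases, the promoters of CXCL1 and CXCL2 were 85.1% identical (269 bases) and those of CXCL1 and CXCL3 86.6% (292 bases). Searched on both strands, the longer pattern was found in 11 of the 26 member promoters (42.3%), against 1.91% of 35093 RefSeq promoters of that length. GGAATTTCC was found in 12 (46.2%), against 0.462%, and a looser pattern, GGG, any 5 bases and CC, in 23 (88.5%), against 58.7%. The motifs overlap, since each match of the longer pattern is also one of the looser pattern, and with AA in its open positions it holds GGAATTTCC. The list holds known NF-kB targets, so these shares describe the list. GGAATTTCC was added after the sequences were seen. TNFAIP2, whose groups did not overlap, held neither GGAATTTCC nor the longer pattern in this window.

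Messages of this family are also known for AU-rich elements, runs of ATTTA in the 3′ end of the transcript through which RNA-binding proteins set their stability. In GENCODE 29 transcripts, CXCL1 had 5 ATTTA in 706 bases after its stop codon, CXCL2 had 10 in 721, CXCL3 had 7 in 673 and CXCL8 had 9 in 1252. Per kilobase that is 7.08 for CXCL1, 13.9 for CXCL2, 10.4 for CXCL3 and 7.19 for CXCL8, against a median of 1.74 over 9267 tested coding genes. As many per kilobase were found in 2.65% of these genes for CXCL1 and in 0.237% for CXCL2. The densest 28 bases of each are shown, with ATTTA in capitals.
CXCL1: taggagaagtcttctATTTATTTATTTA
CXCL2: gtcttctATTTATTTATTTATTTATTTA
CXCL3: acgagggttctacttATTTAtgtATTTA
CXCL8: acctATTTAttATTTAtgtATTTATTTA

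ICAM1 had 1.51 ATTTA per kilobase and TNFAIP2 had none. Whether this density goes with the values was not tested. Closely similar copies can also share reads, and the longest transcripts of CXCL1 and CXCL2 were 90.5% identical over 1086 aligned bases. Of the 50-base windows of the longest CXCL1 transcript, 5.73% occur in another gene, in CXCL2 and CXCL3, and of those of CXCL2 9.24% do, in CXCL1 and CXCL3. CXCL8, ICAM1, NFKBIA and TNFAIP2 share none. No source used here says how the authors' counting treated shared reads.

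The other chemokines of the list were at 0 in all 4 libraries. These were CXCL10 and CXCL11, which attract T cells through CXCR3, and CCL2, CCL5, CCL20 and CCL26, which attract monocytes, T cells, dendritic cells and eosinophils, among others. Of the 7 cytokines, IL1A, IL1B, TNF, LTB, CSF2 and CSF3 were also at 0 throughout. For the 15 members listed at 0, 3 reads of the shortest transcript are worth 5.26 FPKM in knockout 1 and 3.44 in knockout 2, against 1.97 in control 1 and 2.28 in control 2. These limits cover counting error only, and the replicates of many other genes differed by more, so a listed 0 does not show that a gene was not expressed. CSF1, the growth factor of macrophages, had 0 and 6.51 FPKM in the knockouts, against 0 in both controls. Its 34 reads all came from knockout 2, so its fitted log2 fold change of 1.90 ± 2.42 (SE) was 3.81 without knockout 1 and 0 without knockout 2.

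None of the NF-kB subunits passed. Of the 4 tested, 3 had a fitted log2 fold change below 0 and 1 above. RELB, the partner of p52 in the noncanonical pathway, had FPKM of 0 and 18.98 in the knockouts, against 91.3 and 30.5 in the controls. NFKB1, which encodes the p50 precursor, had 27.1 and 9.67 in the knockouts, against 64.3 and 32.2 in the controls. In both genes the 2 knockouts lay below the 2 controls. NFKB1 lies at chr4:102501329-102617302 and RELB at chr19:45001430-45038198, both on the plus strand.

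RELA, the main activating subunit of the canonical pathway, had 40.2 and 8.11 in the knockouts, against 22.4 and 47.02 in the controls. NFKB2, which encodes the p52 precursor, had 33.2 and 90.9 in the knockouts, against 36.8 and 74.6 in the controls. The groups overlapped in both. REL, which encodes c-Rel, was not tested, with 0.237 FPKM (5 reads) in control 2 and 0 in the other 3 libraries.

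In limma the log2 fold change of RELB was −4.10 ± 1.65 (SE, adjusted p = 0.955), or −1.45 without knockout 1 and −6.74 without knockout 2. That of NFKB1 was −1.46 ± 1.20 (adjusted p = 0.955), −2.18 to −0.74 with 1 library left out. RELA (−0.82 ± 1.26) and NFKB2 (0.07 ± 0.93) differed by less than their SE, and both turned sign with a library left out. The ratio of NFKB2 to NFKB1, per length, was 1.22 and 9.40 in the knockouts, against 0.573 and 2.32 in the controls, groups that overlapped. Knockout 1, the shallowest library, was at 0 for 4 of the 14 tested members, knockout 2 for 0, control 1 for 5 and control 2 for 3.

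None of the 3 IkB inhibitors passed, and 1 had a fitted log2 fold change above 0 and 2 below. NFKBIA, which encodes IkB alpha and is an NF-kB target itself, had FPKM of 108 and 82.8 in the knockouts, against 60.6 and 65.2 in the controls. Its groups did not overlap, but the log2 fold change of 0.59 ± 0.81 (SE) was within its SE. With 1 library left out it was 0.40 to 0.78. By reads, the ratio was 1.48 (exact 95% interval 1.27 to 1.73, counting error only).

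NFKBIB, which encodes IkB beta, had 2.80 and 18.3 FPKM in the knockouts, against 12.4 and 17.98 in the controls. NFKBIE, which encodes IkB epsilon, had 0 and 17.8 in the knockouts, against 8.42 and 19.9 in the controls. For both, knockout 2 lay within the control values or just above them and knockout 1 lay below, and the fitted fold changes of −0.97 and −2.16 turned to 0.29 and 0.44 without knockout 1. SIRT2 overlaps NFKBIB on the other strand, with FPKM of 14.3 and 1.36 in the knockouts, against 0.782 and 4.06 in the controls. The strand setting of the counting is not given, so reads from the stretch where the 2 genes overlap cannot be told apart.

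Of the adhesion, feedback and effector genes, ICAM1 and TNFAIP2 had both knockouts above both controls. ICAM1, the endothelial and epithelial ligand of leukocyte integrins, had FPKM of 70.8 and 36.4 in the knockouts, against 13.9 and 12.3 in the controls. It rested on 187 and 147 reads, against 98 and 75, a depth-scaled ratio of 3.79 (exact 95% interval 3.15 to 4.59, counting error only). TNFAIP2, a TNF-induced gene linked to membrane protrusions, had 12.4 and 12.7 in the knockouts, against 0 in both controls.

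For TNFAIP2 this stood for 47 and 74 reads in the knockouts, which is at least 79.3-fold higher when set against 3 reads over both controls. Neither gene passed. The log2 fold change was 1.92 ± 1.23 (SE) for ICAM1, 1.44 to 2.39 with 1 library left out, and 4.71 ± 2.83 for TNFAIP2, 4.69 to 4.73, with adjusted p = 0.955 for each in limma. For TNFAIP2, as for CXCL1, leaving out a control at 0 could not move the fold. ICAM1 lies at chr19:10270835-10286615 and TNFAIP2 at chr14:103123442-103137439, both on the plus strand. The antisense genes that overlap ICAM1 reached at most 0.878 FPKM.

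TNFAIP3, which encodes the ubiquitin-editing inhibitor A20, was not tested, with 1.87 FPKM (11 reads) in knockout 2 and 0 in the other 3 libraries. PTGS2, which encodes cyclooxygenase 2, was likewise not tested, with 0 in both knockouts against 3.89 (38 reads) and 0 in the controls. SOD2, the mitochondrial superoxide dismutase, had 2.42 and 9.66 in the knockouts, against 7.55 and 6.52 in the controls, overlapping groups with a log2 fold change of −0.47 ± 2.23 (SE). WTAP overlaps SOD2 on the other strand, with 32.01 and 19.4 in the knockouts against 51.5 and 11.6 in the controls, and RNU4ATAC18P overlaps it on the same strand, with 83.2 in knockout 2 and 0 elsewhere, so the reads of SOD2 are uncertain.

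**Figure D3:**
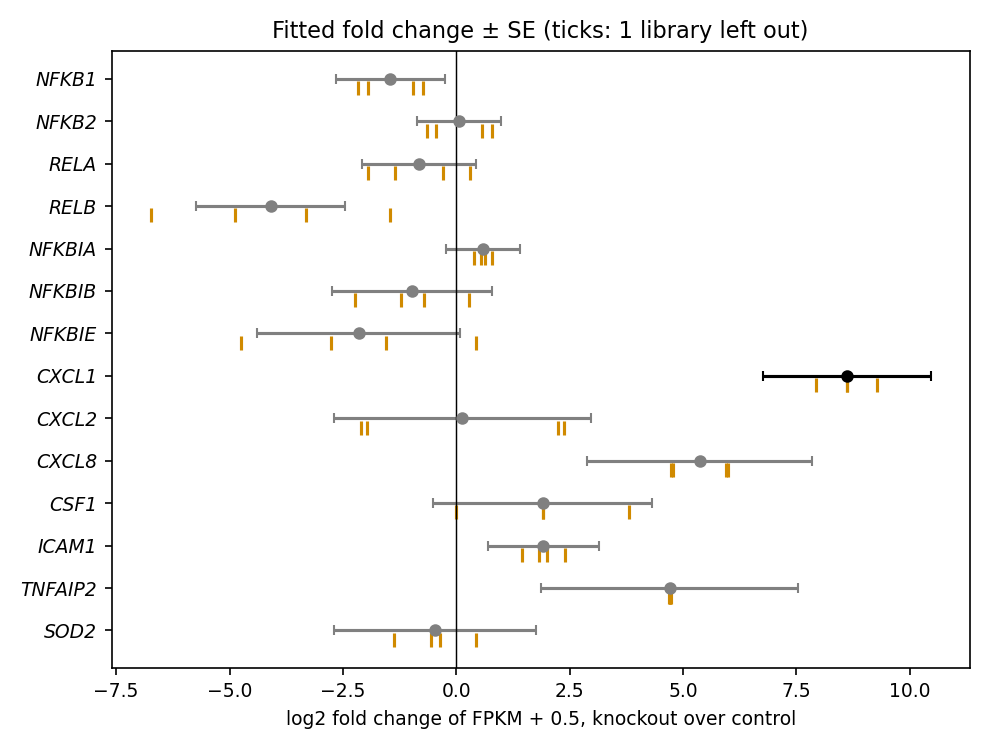
Log2 fold change of FPKM + 0.5, knockout over control, with its SE for the 14 tested members, black where the adjusted p is under 0.05 and grey otherwise, and orange ticks for the fits with 1 library left out. CXCL1 at 8.61 is the black point, and the ticks of NFKB2, RELA, NFKBIB, NFKBIE, CXCL2 and SOD2 fall on both sides of 0.

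Upstream and around the members, 109 other genes of the pathway were examined by role. Of these, 76 were above 0 in at least 1 library and 67 were tested. None passed in either direction (0 of 67, with 4 at an unadjusted p under 0.05, against 3.91% of all genes). Of these 4, CD83 (log2 fold change −5.28 ± 2.55, SE) and CCND1 (−1.23 ± 0.56) were lower in the knockouts. HNRNPD (1.78 ± 0.72) and IER3 (2.81 ± 1.19) were fitted as higher, and the groups overlapped for IER3. Fitted values were above 0 for 33 and below 0 for 34, with a median log2 fold change of −0.07. Groups did not overlap for 21 of the 67, 11 with the knockouts higher and 10 with them lower, near the shares over all genes tested (26.5% in all, 12.1% higher and 14.4% lower).

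Of 12 receptors for these chemokines and colony-stimulating factors, 11 were at 0 in all libraries, CXCR1 and CXCR2 for the ELR family included, and CSF2RA, with 0 in both knockouts against 0 and 0.233 in the controls, was not tested. The other 16 receptors and ligands had 6 tested genes, 2 above 0 and 4 below, all with overlapping groups. Among 22 adaptors and kinases, 17 were tested, 8 above 0 and 9 below. TAB2, an adaptor of the kinase TAK1, had FPKM of 35.4 and 14.3 in the knockouts, against 2.23 and 11.3 in the controls. TRAF3, an adaptor that restrains the noncanonical pathway, had 10.2 and 30.1 in the knockouts, against 54.5 and 36.6 in the controls. TRAF5, another adaptor of TNF receptors, had 0 in both knockouts, against 0.560 and 3.77 in the controls.

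Negative regulators and nuclear IkB proteins gave 13 tested genes, 6 above 0 and 7 below. CYLD, a deubiquitinase that restrains the pathway, had FPKM of 0 and 0.474 in the knockouts, against 2.01 and 4.09 in the controls. TNIP1, a partner of A20, had 57.5 and 65.4 in the knockouts, against 81.8 and 108 in the controls. TNIP2, another A20 partner, had 74.3 and 125 in the knockouts, against 71.2 and 52.5 in the controls. Their log2 fold changes, −0.61 ± 0.81 (SE) for TNIP1 and 0.65 ± 0.81 for TNIP2, were within their SE. None of these passed. The 3 are named because their groups did not overlap, as was so for 4 of the 13 tested genes, against 26.5% of all genes tested.

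Other known targets were split, 8 above 0 and 8 below of 16 tested. CD83, an immunoglobulin-family surface protein, had FPKM of 0.499 and 0 in the knockouts, against 50.9 and 14.1 in the controls. CXCL16, a membrane-bound chemokine, had 0 in both knockouts, against 13.9 and 3.61 in the controls. TAP1, a subunit of the antigen peptide transporter, had 11.2 and 8.72 in the knockouts, against 0 and 4.70 in the controls. CXCL16 thus lay below its controls, where CXCL1 and CXCL8 lay above theirs, and none of CD83, CXCL16 and TAP1 passed (adjusted p = 0.955 for each in limma).

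Factors that set the decay of cytokine messages were all above 0 in some library, and of 15 tested 9 lay above 0 and 6 below (median 0.30). CNOT6, a deadenylase subunit, had FPKM of 58.6 and 20.5 in the knockouts, against 3.74 and 8.14 in the controls. ZFP36, which encodes tristetraprolin and binds AU-rich elements to speed decay, had 2.07 and 2.26 in the knockouts, against 0 in both controls. The ZFP36 values rested on 3 and 5 reads, near the limit that a count of 0 allows. TIA1, which binds AU-rich elements and restrains translation, had 4.24 and 3.12 in the knockouts, against 14.5 and 23.2 in the controls. Each of these 3 had an adjusted p of 0.955 in limma.

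**Figure D4:**
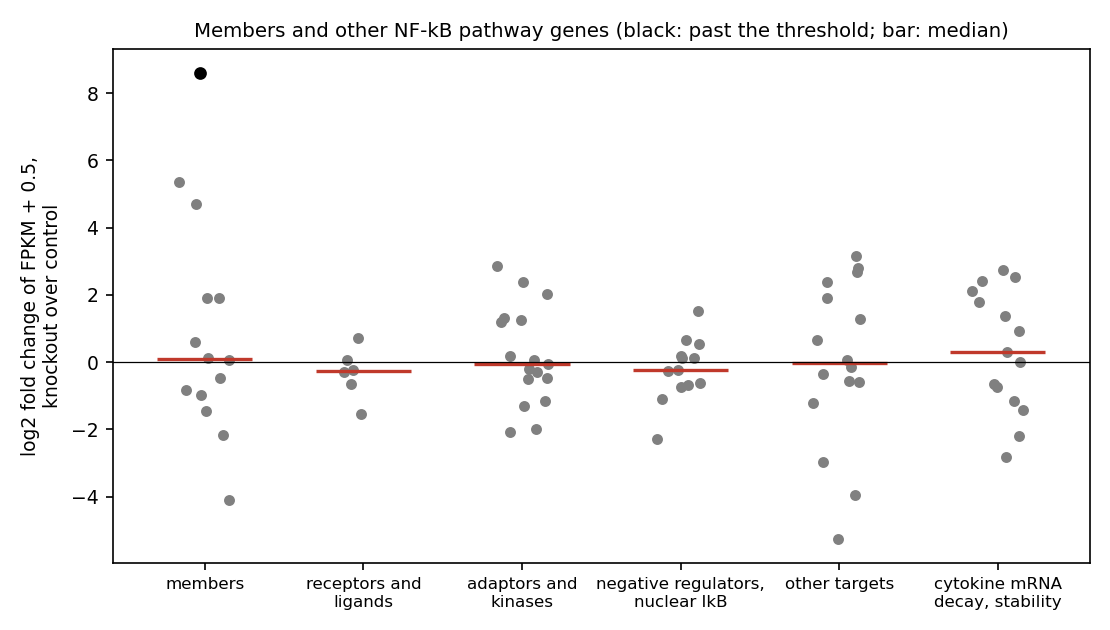
Log2 fold change of FPKM + 0.5, knockout over control, for the 14 tested members and the 67 other tested pathway genes by role, 1 point a gene, with a red bar at each median. CXCL1 is the black point past the threshold, and the medians of all 6 groups lie close to 0, between −0.26 and 0.30.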

How the data were processed

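PolyA RNA libraries of T24 cells (2 IGF2BP3 knockout, 2 control) were made with TruSeq reagents according to the labels' protocols. The deposited values are FPKM, 1 table a library, which the authors derived from HTSeq counts, as the file names show, on hg38 according to the submitters' processing notes. For the aligner, annotation release, strand setting and duplicates: not given in the sources used here. FPKM times the longest GENCODE 29 transcript gave whole reads (tolerance 0.01) for 96.5 to 96.6% of genes above 0, and so the library totals. Genes averaging 1 FPKM or more were tested with limma 3.58.1 in R 4.3.3 (eBayes with trend) on log2(FPKM + 0.5), two-sided; folds on that scale understate changes of low genes. The fit was also run on simulated reads whose replicates differed far less than these, so that run does not show how the fit does here. Names came from GENCODE 29, which matched 58039 of 58302 genes; promoters came from RefSeq. Members, lists and alternatives were chosen with earlier results of these data known. Members of at least 1 FPKM are given by library, and from each pathway role any gene past the threshold and up to 3 with the largest fold among non-overlapping groups. Alternatives covered pseudocount, filter, scaling, moderation, replicate block, limma-voom on recovered reads and leaving out each library.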

Additional observations from a re-analysis of the deposited data

How the results depend on the processing

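With any 1 of the 4 libraries left out, 0 genes and 0 members passed in limma (0 to 0 for both, with 752 to 1025 genes at an unadjusted p under 0.05), where a lone library is taken to vary as the other group does. The count of 10 genes was 0 without the limma trend (where 415 had an unadjusted p under 0.05) and 18 at an adjusted p of 0.1, and 7 to 14 in the other alternatives. Its split of 7 higher and 3 lower became 7 and 6 after rescaling to TPM. The 1 member past the threshold, CXCL1, became 0 with a pseudocount of 0.1 (log2 fold change 10.9) and 0 without trend; over the alternatives with all libraries its adjusted p lay between 0.00318 and 0.891. Pathway genes past the threshold stayed at 0 throughout. Of the tested members, SOD2 turned sign to 0.14 under quantile normalization. With 1 library left out, signs turned for NFKB2 (−0.65 to 0.79), RELA (−1.94 to 0.31), NFKBIB (−2.23 to 0.29), NFKBIE (−4.75 to 0.44), CXCL2 (−2.11 to 2.36) and SOD2 (−1.37 to 0.44), and CSF1 lay between 0 and 3.81. Members above 0 then numbered 6 to 11. The cause was not tested. Replicate numbers do not pair the libraries by the labels, and same-numbered libraries did not deviate together across tested genes (r = −0.004), although library 1 of each group had more genes at 0 than library 2. With the replicate number as a block, 14 genes and 1 member passed. Depth limits what a listed 0 means.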

Other observations

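The chemokine cluster that holds the ELR genes spans 358788 bases of chromosome 4 from CXCL8 to CXCL2 (hg38) and has 9 protein-coding genes in GENCODE 29. Of these, 4 were above 0 in at least 1 library. Beside CXCL1, CXCL2 and CXCL8 this was PPBP, a platelet chemokine, with 0 and 6.77 FPKM (6 reads) in the knockouts and 0 in both controls. PPBP is not in the list, and its reads are not part of the ELR shares given above. PF4 and PF4V1, which lie between the members, were at 0 in all libraries. No noncoding gene of the span was above 0 (4 of 16 genes in all). The cluster was looked at after the values of CXCL1 and CXCL8 were seen, and no test was made.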
